A study of Homo sapiens with 6 samples.

Results

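The zinc finger genes of chromosome 19 were taken as the protein-coding genes of that chromosome whose symbol is ZNF followed by digits, with or without a closing letter. In all, 243 such genes were found, represented by 244 transcription units (TUs) because ZNF761 was counted on 2 transcripts. They made up 17% of the 1430 protein-coding genes of chromosome 19 that were matched and 48.5% of the 501 matched genes with such symbols in the genome, among 37192 matched genes in all. Transcription and RNA level were measured in untreated K562 cells, a human leukemia cell line grown in standard serum-containing medium, with 4 total RNA-seq libraries made after depletion of ribosomal RNA and 2 PRO-seq libraries. PRO-seq sequences RNA still held by engaged polymerases, whereas total RNA-seq follows the amount of RNA that has accumulated. The density of PRO-seq over a TU rises with transcription and falls with faster elongation, as the authors point out. It is read below as transcription, without a correction for elongation. All cells came from 1 flask, so that the p-values below measure the spread between libraries of 1 culture. In bulk libraries, fewer cells with a given RNA and less of that RNA per cell cannot be told apart.

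Most zinc finger genes of chromosome 19 encode proteins that join an N-terminal KRAB domain to a long array of C2H2 zinc fingers. The fingers read DNA, often within retrotransposons, and the KRAB domain recruits the co-repressor TRIM28, which in turn brings the histone methyltransferase SETDB1, heterochromatin proteins and deacetylases. The genes lie in clusters that grew by tandem duplication, so that neighbours resemble each other in sequence. Translation of the reference transcripts gave a usable protein for 240 of the genes. These proteins held a median of 12 C2H2 motifs, from 1 in the lowest to 36 in ZNF208, and 204 of them held a KRAB-like stretch. Among 253 proteins of zinc finger genes on other chromosomes, 97 held such a stretch and the median was 9 motifs.

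The 244 TUs fell into 16 position groups when a gap of more than 1 Mb between neighbouring starts opened a new group. The largest group, the 16th and most telomeric, held 59 TUs between 55987984 and 58992595 of chromosome 19 (GRCh37). The 15th group held 40 TUs, both of ZNF761 among them, the fifth 36 (19779648 to 24312763), the ninth 26, the third 25, the 12th 23 and the second 15, and each of the others held 5 or fewer.

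The promoters of these genes shared sequence within groups. RefSeq promoters (GRCh38.p14, 250 bases before to 50 after the start) were at hand for 213 of the 243 genes. An identical run of at least 20 bases was shared by 344 of the 3159 pairs from the same position group (10.9%) and by 11 of the 19419 pairs from different groups (0.0566%). Of the 213 promoters, 99 (46.5%) shared such a run with another member, compared with 11.1% of 921 promoters of other chromosome 19 genes and 11.0% of 209 promoters of zinc finger genes elsewhere, each within its own list. The heptamer CCGGAAG, a core of the sites bound by ETS-family factors, was present on either strand in 97 of the 213 promoters (45.5%), in 34.4% of those of zinc finger genes elsewhere, in 13.4% of those of other chromosome 19 genes and in 10.7% of all 27305 promoters. Its 107 matches began at a median position of -18 from the start (interquartile range -36 to 1), with 91.6% within 100 bases of it. The 6 promoters below cover 100 bases before to 50 after the start, 5′ to 3′ on the gene's strand, with matches to the heptamer or its reverse complement CTTCCGG in capitals. The first 4 come from the fifth group and show the shared layout of that cluster, with a match in ZNF91, ZNF257 and ZNF85 between stretches that are alike but not identical. The last pair, from the second group, shows neighbours with a run of 25 identical bases and no match to the heptamer.
ZNF91: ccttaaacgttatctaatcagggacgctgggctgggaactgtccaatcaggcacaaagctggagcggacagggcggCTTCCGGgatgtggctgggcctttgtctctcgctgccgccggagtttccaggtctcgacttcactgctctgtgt
ZNF93: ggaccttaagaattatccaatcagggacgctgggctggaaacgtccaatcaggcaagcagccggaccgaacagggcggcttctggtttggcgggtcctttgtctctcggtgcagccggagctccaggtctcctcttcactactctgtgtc
ZNF257: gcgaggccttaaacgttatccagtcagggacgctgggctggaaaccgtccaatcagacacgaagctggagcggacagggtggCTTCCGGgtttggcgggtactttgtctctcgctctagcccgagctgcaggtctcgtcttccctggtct
ZNF85: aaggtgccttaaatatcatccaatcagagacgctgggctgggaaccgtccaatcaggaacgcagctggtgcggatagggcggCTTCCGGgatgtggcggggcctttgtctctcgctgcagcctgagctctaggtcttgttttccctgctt
ZNF121: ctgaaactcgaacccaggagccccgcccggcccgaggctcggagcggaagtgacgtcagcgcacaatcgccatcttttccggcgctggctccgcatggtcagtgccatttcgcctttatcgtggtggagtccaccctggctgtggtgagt
ZNF561: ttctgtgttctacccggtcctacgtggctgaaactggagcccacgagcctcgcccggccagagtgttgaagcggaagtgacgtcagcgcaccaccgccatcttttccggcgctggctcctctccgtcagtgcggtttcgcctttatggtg
These windows lie at chr19:23395422-23395571 on the minus strand (ZNF91), chr19:19900846-19900995 on the plus strand (ZNF93), chr19:22052384-22052533 on the plus strand (ZNF257), chr19:20923151-20923300 on the plus strand (ZNF85), chr19:9584455-9584604 on the minus strand (ZNF121) and chr19:9621183-9621332 on the minus strand (ZNF561). ZNF91 and ZNF93, which code for repressors of SVA and LINE retrotransposons, shared a longest run of 24 identical bases, whereas ZNF91 and ZNF121 shared 9. The match began at -24 in ZNF91 and at -18 in both ZNF257 and ZNF85, and ZNF93 had none.

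Promoter composition also followed the position groups. In the fifth group, the ratio of observed to predicted CpG dinucleotides had a median of 0.437, with 4 of 28 promoters above 0.6, the level often used to define a CpG island. The medians were 0.609 in the third group (13 of 24 above 0.6), 0.749 in the second, 0.795 in the ninth, 0.817 in the 12th, 0.847 in the 15th and 0.83 in the 16th. Over all 213 promoters, 78.4% exceeded 0.6, compared with 79.9% for zinc finger genes elsewhere, 61.0% for other chromosome 19 genes and 48.9% of all promoters. The heptamer was found in 20 of 28 promoters of the fifth group, 20 of 33 of the 15th and 33 of 54 of the 16th, but in 2 of 24 of the third, 7 of 25 of the ninth and 6 of 19 of the 12th. Of the other motifs searched on both strands, CCAAT was present in 53.5% of the members' promoters, 44% of those of zinc finger genes elsewhere, 37.5% of those of other chromosome 19 genes and 35.7% of all promoters. In the same order, GGGCGG was present in 67.1%, 60.3%, 66.9% and 44.6%, AAGATGG in 7.98%, 5.74%, 8.14% and 6.06%, and TATAAA in 1.88%, 3.83%, 8.03% and 12%. A match is a run of letters and was not tested as a binding site.

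Nearly all of the genes gave reads in at least 1 assay. Counts were found in both assays for 200 TUs, in RNA-seq alone for 34 and in PRO-seq alone for 8, and 2 TUs (ZNF177 and ZNF112) had no count. The median level was 4.11 TPM in RNA-seq (interquartile range 0.582 to 12.3) and 13.4 TPM in PRO-seq (1.14 to 39.2), where TPM scales counts by TU length and library total. The levels were uneven, since the 10 most counted members held 34.4% of the members' RNA-seq counts and 26.9% of their PRO-seq counts. The members held 0.358%, 0.376%, 0.363% and 0.384% of the counts of RNA-seq replicates 1 to 4, and 0.606% and 0.612% of those of PRO-seq replicates 1 and 2. The shares did not overlap between the assays, with means of 0.37% ± 0.0119 (SD, n = 4) and 0.609% ± 0.00424 (SD, n = 2). The exact permutation test over the libraries gave a two-sided p of 0.133, the smallest that this test can give with 4 against 2 libraries. After scaling for length, the members took 0.242% of all mRNA TPM in RNA-seq and 0.821% in PRO-seq. They therefore weighed less in the RNA pool than in transcription, but a lower weight in RNA-seq alone does not set them apart. The median mRNA also had a lower TPM in RNA-seq than in PRO-seq, with a log2 ratio of -1.03. The median ratio of the members was -2.16.

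Library totals on TUs ranged from 5732780 to 9002746 counts in RNA-seq and were 6993816 and 7245632 in PRO-seq. RNA-seq replicates 1 and 3, and likewise 2 and 4, differed from each other by little more than sampling noise, with a chi-square per TU of 1.132 and 1.122, compared with 1.745 to 2.126 for the other RNA-seq pairs. Summing each close pair to 1 library left 130 members below and 47 above the median mRNA in the test described further on. Of all TUs, 46.1% lay below and 34.9% above in that fit. The libraries were kept apart, but such counts do not show that the close pairs are independent. The SD and the permutation test above take all 4 RNA-seq libraries as independent, which was not tested. All 11 K562 markers had RNA-seq counts, from 13.2 to 6290 TPM. Of the 5 markers of other cell types that were measured, ALB, CD3E, COL1A1 and MS4A1 lay between 0.0413 and 0.483 TPM, and EPCAM lay at 120 TPM. Between libraries of 1 assay, Spearman's ρ across the members was 0.973 to 0.989.

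The most transcribed member was ZNF121, in the second group (chromosome 19, 9671029 to 9695173, minus strand, GRCh37). Its PRO-seq level was 214 and 208 TPM in the 2 libraries, and its RNA-seq level was 91.3, 101, 95.6 and 101 TPM. ZNF121 was thus abundant in both assays, and its ratio of RNA-seq to PRO-seq was not called different from that of the median mRNA (log2 difference -0.04 ± 0.05 SE, adjusted p = 0.378). ZNF561, its neighbour on the same strand, lay at 128 and 138 TPM in PRO-seq but at 18.9, 19, 21.4 and 20.9 TPM in RNA-seq. The transcript counted for ZNF561 is annotated under nonsense-mediated decay and covers 11.5% of the canonical one, so that its RNA-seq level rests on 912 exon bases.

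ZNF146, in the ninth group (36705504 to 36729673, plus strand), had the highest RNA-seq level of all members. It encodes a protein made almost wholly of zinc fingers, without a KRAB domain. Its RNA-seq level was 187, 192, 193 and 195 TPM, and its PRO-seq level was 129 and 119 TPM, so that every RNA-seq library lay above both PRO-seq libraries. ZNF428, which holds a single C2H2 motif, reached 124, 111, 119 and 105 TPM in RNA-seq against 29.5 and 34.6 TPM in PRO-seq. For ZNF787, the RNA-seq levels of 113, 98.8, 104 and 101 TPM overlapped the PRO-seq levels of 103 and 111 TPM. The median mRNA had a log2 ratio of RNA-seq to PRO-seq TPM of -1.03, so equal TPM in the 2 assays lies above the median mRNA. None of these 3 proteins held the KRAB-like stretch that 204 of 240 members held.

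ZNF792, in the eighth group, showed the opposite arrangement. Its PRO-seq level of 145 and 143 TPM was second to that of ZNF121, whereas its RNA-seq level was 13.1, 14.6, 13.4 and 14.7 TPM. ZNF175, a KRAB protein described as a repressor of viral promoters, lay at 129 and 124 TPM in PRO-seq and at 18.6, 19.7, 17.2 and 18.8 TPM in RNA-seq. ZNF274, which recruits SETDB1 to the 3′ ends of other zinc finger genes, lay at 104 and 110 TPM in PRO-seq and at 32.4, 34.0, 32.4 and 34.7 TPM in RNA-seq. All 3 genes were thus among the strongly transcribed members, with RNA levels several times below those of ZNF146. The plot of TPM by library shows the same contrast for 12 members.

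Relative half-life was taken as the ratio of RNA-seq TPM to PRO-seq TPM, which has no time unit. It is given on the log2 scale relative to the median mRNA. Reading the ratio as a half-life assumes that RNA synthesis and decay are in balance and that elongation rates are alike. Neither was tested here. Each TU with at least 20 counts over the 6 libraries was tested with edgeR's quasi-likelihood test of RNA-seq against PRO-seq, with offsets for length, centring on the median mRNA and Benjamini-Hochberg adjustment over all 18899 TUs tested. Of the members, 213 passed the count minimum. Among them, 130 (61.0%) lay below the median mRNA at an adjusted p under 0.05, where 46.9% of all TUs tested did (37.1% of members and 33% of all TUs when a 2-fold difference was tested), and 48 (22.5%) lay above it, where 35.4% of all TUs tested did. The members' median difference was -0.83, or -0.86 with members lacking counts in 1 assay set at a bound of 3 counts. The corresponding shares below and above were 68.3% and 19.1% for 230 TUs of zinc finger genes elsewhere (median -0.94), and 51.3% and 37.1% for 858 TUs of other chromosome 19 genes (median -0.47). Genes are not independent replicates, and no test was made over the list.

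Many of the members above the median mRNA had PRO-seq counts of 0 or close to 0. In all, 36 members had no PRO-seq count, although 15 of them held more than 100 RNA-seq counts. For 35 of these 36, under 5% of the interval counted in PRO-seq lay outside other counted TUs on the same strand. ZNF468, with 432, 532, 316 and 379 RNA-seq counts in replicates 1 to 4, had 0 PRO-seq counts, and 99.9% of its interval lay within ZNF28. ZNF816 had 981 RNA-seq counts and none in PRO-seq, and its interval lay within the read-through gene ZNF816-ZNF321P. ZNF587B had 2310 RNA-seq counts and 3 PRO-seq counts, and ZNF841, inside the interval of ZNF432, had 957 and 1. Other pairs were ZNF581 with ZNF580, and ZNF177 with ZNF559-ZNF177. These genes were chosen here for their counts, apart from ZNF177. The covering gene was annotated as protein-coding for 28 of these members and as long noncoding for 7, and some genes covered more than 1 member.

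The same held beyond the zinc finger genes. Of 174 mRNAs with at least 100 RNA-seq counts whose interval lay wholly within other TUs on the same strand, 163 (93.7%) had no PRO-seq count, compared with 62 of 9251 (0.67%) that lay within none. Of 268 mRNAs covered on the opposite strand alone, 0 lacked PRO-seq counts, so the PRO-seq counts kept the strands apart. Overlap was more frequent among the members. Under 10% of the interval was outside other TUs for 44 members (18.0%), compared with 6.46% of mRNAs, 7.15% of other chromosome 19 genes and 8.11% of zinc finger genes elsewhere. All 24 tested members without PRO-seq counts were called above the median mRNA, 30 of the 48 members called above had under 10% of their interval outside other TUs, and 0 of the 130 called below did. A PRO-seq count of 0 in these genes is therefore no measure of their transcription. The exception was ZNF888, with 1969 RNA-seq counts (30.1, 38.2, 31.1 and 40.0 TPM) and 0 PRO-seq counts in an interval that met no other matched TU. Overlap of ZNF888 with a TU outside the annotation used was not tested.

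When the test was limited to the 16497 TUs with at least 90% of the interval in no other TU on the strand, a limit added after seeing the data, 158 members remained. Of these, 114 (72.2%) lay below the median mRNA, where 47.5% of all such TUs did, and 14 (8.86%) lay above it, where 34.3% did. Their median difference was -1.15. Zinc finger genes elsewhere gave 73.7% below and 13.6% above (198 TUs, median -0.98), whereas other chromosome 19 genes gave 50.1% and 36.9% (708 TUs, median -0.40). The zinc finger genes on chromosome 19 thus lay close to those elsewhere and apart from their chromosomal neighbours in these shares, a difference between lists that was not tested. When a 2-fold difference was tested, without the limit on intervals, the shares below were alike. They were 37.1% for members, 38.7% for zinc finger genes elsewhere and 36.0% for other chromosome 19 genes, with 16.9%, 11.7% and 24.8% above. The median log2 relative half-life of the members minus that of all mRNAs was -1.12 (-1.36 to -1.15 over the 8 pairs of 1 RNA-seq and 1 PRO-seq library, each limited to TUs counted in that pair), and it was -1.21 within the limit. Minus that of zinc finger genes elsewhere it was -0.12 (-0.25 to 0.01) over all members and -0.18 (-0.34 to -0.04) within the limit, and minus that of other chromosome 19 genes -0.68 (-0.98 to -0.62). Relative to zinc finger genes elsewhere, the range over library pairs included 0 over all members and lay just below 0 within the limit.

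The members also varied less among themselves. Within the same limit, the central 50% of the members lay between -1.76 and -0.46, compared with -1.35 to 1.19 for all mRNAs, -1.88 to -0.31 for zinc finger genes elsewhere and -2.04 to 0.97 for other chromosome 19 genes. The 10th percentile was -2.92 for the members and -2.89 for mRNAs, whereas the 90th percentile was 0.11 for the members and 2.26 for mRNAs. The 10th and 90th percentiles were -2.92 and 0.54 for zinc finger genes elsewhere, and -3.76 and 2.20 for other chromosome 19 genes. High values were thus rarer among zinc finger genes of either list than among mRNAs, although single members reached 2.87. Transcription and RNA level were correlated across the members, with Spearman's ρ = 0.777 over 200 TUs and ρ = 0.836 over the 167 within the limit. The corresponding values were 0.784 for zinc finger genes elsewhere, 0.845 for other chromosome 19 genes and 0.856 for mRNAs. These correlations run across genes and share the same libraries. The SD of log2 relative half-life between libraries had a median of 0.249 over 172 members and 0.159 over mRNAs. It was 0.158 for 60 members with at least 1000 counts and 0.349 for 112 with fewer.

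Among members with at least 10 counts in each assay, the lowest relative half-lives were found for ZNF765, ZNF446, ZNF414, ZNF549, ZNF418 and ZNF628. ZNF446, a protein with a SCAN and a KRAB domain (58985384 to 58992595), lay at 72.2 and 66.0 TPM in PRO-seq and at 2.29, 2.86, 1.95 and 2.30 TPM in RNA-seq, a log2 difference of -3.77 ± 0.18 SE (adjusted p = 2.35e-94). ZNF628, linked to spermatogenesis, lay at 60.2 and 48.6 TPM in PRO-seq and at 2.89, 2.12, 3.44 and 1.97 TPM in RNA-seq (-3.33 ± 0.19 SE). ZNF414 lay at 36.6 and 43.5 TPM in PRO-seq and at 1.34, 1.69, 0.498 and 3.04 TPM in RNA-seq (-3.51 ± 0.31 SE), and its RNA-seq libraries differed most among these genes. In all 3 genes every RNA-seq library lay far below both PRO-seq libraries. ZNF418 followed with 10.8 and 12.1 TPM against 0.552, 0.327, 0.617 and 0.627 TPM (-3.38 ± 0.35 SE). The values of ZNF765 (-4.04) and ZNF549 (-3.38) rest on counted transcripts that cover 5.16% and 8.48% of the canonical one. For ZNF446, 63.8% of the exon bases lay in no exon of another TU on the strand. Its counted transcript covers 85.0% of the canonical one.

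With a free interval and at least 10 counts in each assay, a minimum that leaves out ZNF888, the highest values were those of ZNF428 at 2.91 ± 0.10 SE (adjusted p = 1.13e-180), ZNF90 at 2.91 ± 0.16 SE and ZNF146 at 1.70 ± 0.05 SE (adjusted p = 2.76e-239). ZNF90 lay at 14.8, 15.4, 17.5 and 17.4 TPM in RNA-seq and at 4.75 and 4.26 TPM in PRO-seq, on a transcript that covers 6.20% of the canonical one. The other 3 genes named for high values lay within other TUs. ZNF607 (2.73 ± 0.31 SE), ZNF653 (2.49 ± 0.34 SE) and ZNF585B (1.65 ± 0.38 SE) had 2.56%, 0.659% and 12.4% of the interval free. When lengths were limited to the stretches in no other TU, ZNF607 turned to -2.38 and ZNF585B to -1.26. ZNF653 had under 500 free bases in its interval, the minimum for that fit, and could not be tested in this way. ZNF787 (1.04 ± 0.06 SE) was above the median mRNA as well. The other members above it within the limit, named after their values were seen, were ZNF266, ZNF714, ZNF227, ZNF444, ZNF584, ZNF331, ZNF420, ZNF529, ZNF320 and ZNF888.

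Of 23 members listed for a known role, 21 were measured, and 20 were tested. Of these, 13 lay below the median mRNA, 3 above it (ZNF146, ZNF444 and ZNF331) and 4 were not called, with a median of -0.71. Over all TUs tested, 46.9% lay below and 35.4% above. ZNF649, a KRAB repressor of serum response and AP-1 reporters, lay at 89.2 and 84.2 TPM in PRO-seq and at 12.6, 13.5, 13.1 and 13.7 TPM in RNA-seq (-1.64 ± 0.10 SE). ZNF175 (-1.68 ± 0.07 SE) and ZNF274 (-0.60 ± 0.07 SE) also lay below. ZNF350, a partner of BRCA1, lay at -0.82, ZNF304 at -0.41, ZNF224, a repressor of the aldolase A gene, at -0.34 and ZNF257 at -0.30. When values were centred on other chromosome 19 genes, the last 3 turned to 0.06, 0.14 and 0.17 and were not called. ZNF808, needed for human pancreas development, lay at 32.7 and 34.4 TPM in PRO-seq and at 14.5, 16.1, 15.7 and 15.7 TPM in RNA-seq, and its difference of -0.04 was not called, nor was that of ZNF587 at -0.07 with 43.3% of its interval free. ZNF444 lay at 0.66 and the imprinted gene ZNF331 at 0.78.

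For 4 of the listed members in the fifth group, levels of transcription differed. PRO-seq gave 16.9 TPM in both libraries for ZNF91, 43.3 and 41.6 TPM for ZNF93, 16.0 and 18.1 TPM for ZNF257, and 1.90 and 2.87 TPM for ZNF85. ZNF93 lay above the members' upper quartile and ZNF85 below their median. The RNA-seq values carry a limit, since the transcripts counted for ZNF91 (-0.99) and ZNF93 (-2.75) cover 6.85% and 2.61% of the canonical ones and held 31 counts each over the 4 libraries. ZNF85 was counted on its full transcript, with 0.331, 0.522, 0.328 and 0.429 TPM in RNA-seq (-1.44 ± 0.51 SE). ZNF208, with 36 C2H2 motifs, was not called (0.40 ± 0.36 SE, 5% of the canonical covered). ZNF473, which takes part in the processing of histone pre-mRNAs, lay at 120 and 124 TPM in PRO-seq and at 32.0, 29.5, 24.8 and 30.4 TPM in RNA-seq (-0.97, 8.14% covered). ZNF417, a paralogue of ZNF587, had 7 RNA-seq counts and no PRO-seq count within another TU and was not tested. In all, 17 of the 41 named TUs were counted on a transcript that covers under 90% of the canonical one, and over all members, 159 of 244 were counted on one that covers at least 90%.

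Some of the members listed for a known role were near the floor. ZNF382, a KRAB repressor described as silenced in tumours, had 23 PRO-seq counts (0.974 and 2.18 TPM) and 1 RNA-seq count, in replicate 4 (adjusted p = 1.12e-11). ZNF568, whose mouse counterpart represses a placental Igf2 transcript, had 27 PRO-seq and 5 RNA-seq counts and was not called. ZNF541, a meiotic gene, had 51 PRO-seq and 20 RNA-seq counts (-1.56 ± 0.42 SE). The members with the largest spread between libraries were ZNF155, ZNF677 and ZNF761, with 12, 14 and 23 RNA-seq counts. ZNF677 lay at 0.0732, 0.278, 0.545 and 0.380 TPM in RNA-seq and at 3.56 and 2.87 TPM in PRO-seq (-2.33 ± 0.51 SE). The ZNF761 transcript with 23 RNA-seq counts had 174 PRO-seq counts and 17.1% of its interval free (-2.30 ± 0.30 SE). The other transcript counted for ZNF761 had 1052 RNA-seq and 0 PRO-seq counts, in an interval wholly within that of the first. ZNF155, with 3.55, 0.420, 0 and 1.73 TPM in RNA-seq, was not called.

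The position groups differed more in transcription than in relative half-life. Among members with a free interval, the median PRO-seq level was 65.9 TPM in the second group, 27.7 in the 16th, 25.6 in the 12th, 24.3 in the third, 16.8 in the 15th, 16.0 in the fifth and 9.49 in the ninth. The median log2 relative half-life lay below 0 in all 16 groups, from -0.50 (2 genes) to -2.61 (1 gene), and between -0.76 (12th) and -1.44 (15th) in the 7 groups of more than 10 such genes. By the test over all TUs, 24 of 33 tested in the 16th group lay below the median mRNA and 3 above, in the fifth 21 and 2 of 27, in the 15th 19 and 3 of 24, and in the ninth 12 and 3 of 21, where 48.4% of all TUs with a free interval lay below and 33.8% above. The groups overlapped widely, and no difference between groups was tested.

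Among the members, transcription differed little with the promoter features examined. With a free interval, the 67 members whose promoter held CCGGAAG had a median PRO-seq level of 27.5 TPM (interquartile range 4.55 to 49.3), and the 83 without it had 25.9 TPM (9.49 to 42.4). Among other mRNAs, the medians were 49.3 TPM for 1785 with the heptamer and 9.13 TPM for 11005 without it. Spearman's ρ of the CpG ratio with PRO-seq TPM was 0.06 over the 150 members. For proteins with the KRAB-like stretch, the median PRO-seq level was 18.3 TPM, and 98 of 128 tested lay below the median mRNA and 9 above in the test over all TUs. For those without it, the median was 32.6 TPM, and 16 of 27 lay below and 4 above. Of all TUs with a free interval, 48.4% lay below and 33.8% above in that test. The difference between these lists was not tested.

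Transcript features were set beside relative half-life in 100 members with a free interval, a counted transcript that covers at least 90% of the canonical one and at least 10 counts in each assay. Spearman's ρ with log2 relative half-life was -0.23 for exon length (-0.347 over 8260 mRNAs) and -0.212 for 3′ UTR length (-0.265 over 8122 mRNAs). The GC content of the coding sequence, with ρ = -0.274 over mRNAs and -0.23 over zinc finger genes elsewhere, gave 0.023 over the members. The number of C2H2 motifs gave -0.024. The share of 75-base exon windows found once in the genome gave 0.245 over the members. It gave 0.167 over zinc finger genes elsewhere, 0.054 over other chromosome 19 genes and 0.039 over mRNAs. Reads that align to more than 1 place were not counted. With exon lengths scaled to that share, 60.6% of members tested lay below the median mRNA, against 47.1% of all TUs. These values are descriptions across genes that share libraries, and TU length also enters the half-life itself through the scaling.

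The KRAB co-repressor genes, listed as the partners of these proteins, lay mostly on the other side of the median mRNA. All 16 were measured and tested, and 13 lay above and 3 below. Of all TUs tested, 35.4% lay above and 46.9% below, and of all mRNAs 44.2% and 40.9%. TRIM28, which is itself on chromosome 19, lay at 413, 371, 411 and 381 TPM in RNA-seq and at 162 and 208 TPM in PRO-seq (2.16 ± 0.06 SE, adjusted p = 1.49e-280). SETDB1 lay at 39.4, 36.8, 36.4 and 36.2 TPM in RNA-seq and at 49.2 and 50.3 TPM in PRO-seq (0.66 ± 0.07 SE). The 3 below were ATF7IP, the partner of SETDB1 (-0.19), the heterochromatin protein gene CBX5 (-0.84) and MORC2 (-1.36). For CHD4, above the median mRNA, 2.85% of the PRO-seq interval was free of other TUs. HDAC2, TASOR, CBX3 and PPHLN1, also above, were counted on transcripts that cover 3.04%, 64.1%, 83.8% and 84.0% of the canonical ones. DNMT1 lay above by 0.12. TRIM28 RNA was thus more abundant than that of any member in each RNA-seq library, while its PRO-seq level of 185 TPM over both libraries lay below that of ZNF121 at 211 TPM.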

How the data were processed

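The 4 libraries of rRNA-depleted total RNA and the 2 paired-end PRO-seq libraries were grouped by the assay in the labels. According to the methods, the authors trimmed reads with Cutadapt, aligned them with HISAT2 to GRCh38 and counted them per transcript with HTSeq, with 500 bp at either TU end excluded in PRO-seq. The deposited values are raw counts. Tool versions and strand settings were not found in the sources. Rows that name no TU (66.5% to 68.6% of RNA-seq records, 86.5% and 88.6% of PRO-seq records) were left out, as were 801 rows of another identifier type, all at 0. Reads that align to more than 1 place were not counted by the authors.

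Of 42371 transcripts, 37339 (88.1%) had their identifier in the GENCODE annotation lifted to GRCh37, which gave lengths, classes and coordinates. ZNF43 and ZNF296 were not analysed here. TPM used counts summed over libraries, exon length for RNA-seq and span minus 1000 bp for PRO-seq. edgeR 4.0.16 (R 4.3.3) tested RNA-seq against PRO-seq on the counts with TMM and length offsets, over TUs with at least 20 counts, called at an adjusted p under 0.05. The SE beside a log2 difference was derived from that test, as the absolute difference divided by the square root of its F statistic. DESeq2 1.42.0 was an alternative, and Python 3.11.15 did the rest. In simulated counts over 17336 TUs for RNA-seq against PRO-seq, 66.7% of 87 TUs with a log2 change of 1 were recovered. So were 83.0% of 94 with a log2 change of 2, with 0.047% false calls. The simulation gave every TU the same spread beyond sampling noise and left 17155 TUs without change. The data differ in both, so these values are no error rates of the calls made here. The members, gene lists and tests were chosen with earlier results of these data known. Named members were the 6 lowest and 6 highest in relative half-life, the 4 highest in each assay and the 3 with the largest SD (at least 10 counts in each assay), those with no count, and a list of known roles. Intervals free of other TUs, cover of the canonical transcript, unique exon length and sums of close libraries were alternatives added after seeing the data. Replicate numbers were not treated as pairs: deviations of same-numbered libraries had Pearson's r = -0.0228 over 11781 TUs.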

Additional observations from a re-analysis of the deposited data

Results flagged for a closer look

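Among the named members, 40 groups of 4 RNA-seq libraries were examined for a library far from the others, of which chance marks about 1 in 20, and 2 stood out. ZNF382 had 0.04 TPM in RNA-seq replicate 4, from 1 count, and 0 in the other libraries. ZNF585B had 1.05 TPM in RNA-seq replicate 3, from 17 counts, against 1.65 to 1.72 TPM in the others.

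Signal was also present in TUs that carry ZNF symbols on chromosome 19 but are not among the genes described, such as antisense, divergent and read-through transcripts and pseudogenes. Of 43 such TUs, 26 had more than 3 PRO-seq counts, the limit that a count of 0 allows. Together they held 2406 PRO-seq and 2499 RNA-seq counts.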

How the results depend on the processing

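Over the members as a whole, 103 of 131 alternative values stayed close to those reported, and of 739 for the named members, 675 kept their direction and their side of the threshold. The count of 130 members below the median mRNA dropped to 79 (37.1%, against 33% of all TUs) when a 2-fold difference was tested. It was 78 of 106 (73.6%, against 48.2% of all TUs) with a free interval and 90% of the canonical transcript covered. With each library left out it ranged from 127 to 131, where 45.5% to 46.0% of all TUs lay below. The count of 48 above dropped to 6 of 128 with TPM minimums of 10 for PRO-seq and 1 for RNA-seq, 14 of 167 with at least 10 counts in each assay, 14 of 158 with a free interval, 15 of 185 with length in no other TU and 8 with both limits, and ranged from 41 to 47 with each library left out. Fewer members were tested under these limits, where 40.0%, 38.4%, 34.3%, 34.6% and 34.1% of all TUs lay above, in the same order. With each library left out, 34.6% to 35.4% of all TUs did. Centring on other chromosome 19 genes gave 98 below (46.0%, against 37.7% of all TUs) and 67 above (31.5%, against 42.3%). DESeq2 gave 121 below (56.8%, against 40.4%) and 44 above (20.7%, against 33.8%). Replicate numbers pair no samples here. The fit with a replicate block (replicates 1 and 2 of both assays) gave 118 below and 42 above of 210. In that fit, 41.9% of all TUs lay below and 34.3% above.

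The median difference from mRNAs was -1.50 with the TPM minimums, -1.39 at 10 counts and -0.97 at 1 count in each assay, -1.02 with a pseudocount of 1 TPM and -0.43 without length, and -1.20 to -1.08 with a library left out. Against other chromosome 19 genes it was -1.21, -0.92, -0.45 and -0.47 under the first 4 of these, -0.81 with both limits, and -0.75 to -0.58. Against zinc finger genes elsewhere it turned to 0.011 with the pseudocount and 0.13 without length, and was -0.16 to -0.02 with a library left out. Spearman's ρ was 0.751 at 10 counts, 0.598 with the TPM minimums, 0.647 without length, 0.836 with a free interval, 0.857 with both limits, 0.825 with free length and 0.772 to 0.800 with a library left out, the highest without PRO-seq replicate 1. The other leave-one-out ranges were 196 to 200 for members counted in both assays (128 with the TPM minimums), 0.241 to 0.254 for the SD between libraries and 0.6 to 0.615 for the RNA-seq share over the PRO-seq share (0.572 over protein-coding counts). A gap of 0.5 Mb gave 20 position groups.

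Named members that changed sign were ZNF121 (0.25 at 1 count over the libraries, 0.43 centred on chromosome 19, 0.036 with free length, 0.016 with both limits), ZNF808 (0.25 and 0.43 under the first of these settings), ZNF587 (0.22 and 0.40 likewise, 0.17 with unique exon length), ZNF257 (0.17), ZNF224 (0.14) and ZNF304 (0.057) centred on chromosome 19, and ZNF585B (-1.26) and ZNF607 (-2.38) with free length. Except where the construction shows it, the cause was not tested. Depth limits the members with under 1000 counts, whose SD had a median of 0.349.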

Other observations

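Some transcripts next to the zinc finger genes also had signal, and they were chosen here for their counts. ZNF8-DT, the divergent transcript of ZNF8, had 338 and 364 PRO-seq counts and 51, 48, 34 and 47 RNA-seq counts (65.4 and 4.85 TPM). ZNF542P had 188 and 180 PRO-seq counts and 254, 303, 170 and 223 RNA-seq counts, which came to 67.1 and 20.6 TPM after scaling for length. The antisense transcripts ZNF529-AS1 and ZNF460-AS1 lay at 30.9 and 44.8 TPM in PRO-seq and at 2.21 and 3.41 TPM in RNA-seq. Each of these 4 TUs lay free of other TUs on its strand and had the higher TPM in PRO-seq.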
